A study of Mus musculus with 12 samples.

Results

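Collagen folding, endoplasmic reticulum (ER) chaperone and unfolded protein response genes were read in poly(A) RNA of mouse forebrain from 12 libraries. The set is 49 genes, found by matching a list of symbols to the Ensembl IDs of the count table, of 43629 IDs in all. It joins 22 genes that modify, fold, export or process collagen with 27 genes of general ER folding, degradation and stress. As newborns the mice had been injected in the brain ventricles with PBS or with rAAV, an adeno-associated viral vector, that carried a collagen domain, and tissue was taken at 3 months. Strain and construct promoter are not given in the sources used here. There were 3 libraries each of PBS females, PBS males, collagen domain females and collagen domain males. No group received rAAV without the construct, so vector and construct cannot be told apart, and the labels do not say that each library came from a separate mouse, so p-values measure the spread between these libraries only. By its title the study is about C1qTNF3, a secreted member of the C1q and TNF related proteins, whose collagen domain it names as a chaperone for secreted proteins. The comparisons below ask whether brain cells that made more of it held other amounts of the RNAs that fold collagen and other secreted proteins.

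Collagen is built in the ER. Prolyl 4-hydroxylases and lysyl hydroxylases modify the chains as they enter, a prolyl 3-hydroxylase complex and the chaperone HSP47 act on the folding triple helix, and lysyl oxidases cross-link it outside the cell. Other secreted proteins use the HSP70-type chaperone BiP, protein disulfide isomerases and the calnexin cycle. When unfolded protein builds up, the sensors IRE1, PERK and ATF6 raise transcription of chaperone and degradation genes through XBP1, ATF6 and ATF4. Gene counts cannot separate the spliced form of Xbp1, which carries the IRE1 signal, from the unspliced form. In bulk brain RNA, fewer cells of a type and less RNA per cell cannot be told apart. Collagen is known from meningeal and vascular cells, while the ER genes are used by every cell. The collagen list is not limited to such source cells, since P4hb also serves as protein disulfide isomerase.

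Libraries held 39272127 to 52323985 counted reads. C1qtnf3 was read first, as a check of the labels. Among libraries labelled collagen domain, females 1 and 3 held 23 and 8 C1qtnf3 reads, and the other 4 held between 2612 and 4966. Among libraries labelled PBS, female 2 held 1071 and male 1 held 2675, and the other 4 held between 12 and 28. These 4 libraries go against their treatment label. By the higher of Xist and Ddx3y, 4 libraries go against their sex label, and 5 libraries go against either label. Each comparison is therefore given by label and again without these libraries. The summed level of 10 forebrain markers lay between 433 and 593 CPM (counts scaled to library size by TMM) over the 12 libraries. The 12 cerebellum and hindbrain markers summed to 529 CPM or more, up to 993, in 5 libraries and to no more than 205 CPM, down to 159, in the remaining 7, so the forebrain label holds unevenly. The forebrain sum was 433 to 492 CPM in those 5 libraries and 516 to 593 in the remaining 7.

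Some promoters of the ER genes carry the letters that ATF6 and XBP1 are known to read, and these are shown because they were found in 10 of 24 ER genes with a promoter window and in 0 of 15 collagen genes with one. RefSeq promoter windows (GRCm38.p6, 250 bases before to 50 after the start) were matched for 39 of the 49 genes, in 41 windows. The ER stress response element was searched on both strands as CCAAT, 9 bases of any kind, and CCACG. It was found in 8 of the genes, all from the ER list and none from the collagen list, and in 0.119% of 32851 promoters. The shorter ERSE-II, ATTGG, 1 base and CCACG, was found in Dnajb11 and Herpud1 and in 0.0365% of promoters. The matches are given with the fixed letters in capitals, 5′ to 3′ in the direction of the motif.
Hspa5: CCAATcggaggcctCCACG
Hsp90b1 distal: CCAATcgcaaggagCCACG
Hsp90b1 proximal: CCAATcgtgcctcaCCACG
Calr: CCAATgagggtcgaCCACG
Canx: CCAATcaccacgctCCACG
Creld2: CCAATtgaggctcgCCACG
Dnajc3: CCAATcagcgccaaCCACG
Pdia6: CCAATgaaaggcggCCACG
Syvn1: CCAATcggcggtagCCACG
Herpud1: ATTGGgCCACG
Dnajb11: ATTGGcCCACG
The 9 ERSE matches share their outer letters by the search, while the bases between differ from gene to gene. The first base of the match, in gene direction, lay at -65 from the start in Hspa5, at -44 in Syvn1 and at -212 and -107 in Hsp90b1.

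The whole windows of 3 genes show where the elements sit. That of Hspa5 (chr2:34771840-34772139, plus strand) holds 1 match close to the start, that of Hsp90b1 (chr10:86705395-86705694, minus strand) holds 2 on opposite strands, and that of Serpinh1 (chr7:99353190-99353489, minus strand), the gene of the collagen chaperone HSP47, holds none. Motif bases are in capitals.
Hspa5: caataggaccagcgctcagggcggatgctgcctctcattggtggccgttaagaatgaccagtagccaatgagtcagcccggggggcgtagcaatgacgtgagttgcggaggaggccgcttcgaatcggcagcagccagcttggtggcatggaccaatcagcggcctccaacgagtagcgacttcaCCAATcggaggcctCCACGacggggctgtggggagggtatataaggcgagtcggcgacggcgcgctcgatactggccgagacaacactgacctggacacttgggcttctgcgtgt
Hsp90b1: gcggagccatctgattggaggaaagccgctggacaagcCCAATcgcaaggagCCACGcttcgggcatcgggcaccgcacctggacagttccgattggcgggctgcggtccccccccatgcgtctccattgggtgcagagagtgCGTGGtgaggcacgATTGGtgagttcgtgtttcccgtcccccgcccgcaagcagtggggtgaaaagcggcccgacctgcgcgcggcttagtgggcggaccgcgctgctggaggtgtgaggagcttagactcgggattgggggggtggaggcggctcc
Serpinh1: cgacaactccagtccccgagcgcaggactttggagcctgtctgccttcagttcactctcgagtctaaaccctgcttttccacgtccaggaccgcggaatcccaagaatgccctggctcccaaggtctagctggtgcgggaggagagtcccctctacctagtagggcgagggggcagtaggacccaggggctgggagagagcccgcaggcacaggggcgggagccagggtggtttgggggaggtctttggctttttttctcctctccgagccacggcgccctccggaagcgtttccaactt
Neither the XBP1-type core TGACGTGG (0.676% of all promoters) nor the letters TGATGNAAT, searched as an ATF4-type element (0.965%), were found in a window of the 49 genes. That search asked for a final T. The Asns window holds tgatgaaac, which differs from the searched letters only in its last base, and forms with other last bases were not counted. No match says only that these letters are not in this window. No window was matched for Atf6, Bmp1, Fkbp10, Hyou1, Lox, Loxl1, Loxl2, Manf, P3h2 and Plod2.

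Every one of the 49 genes passed the filter on low counts. Levels between genes are compared per length, as RPKM (CPM divided by the exon length in kilobases), averaged over the 12 libraries. The most abundant were Sparc, a secreted collagen-binding protein, at 88.9, and the ER lectins Calr at 82.9 and Canx at 77.3, which hold glycoproteins during folding. Hspa5, the gene of BiP, stood at 66.5, the disulfide isomerase Pdia3 at 61.9 and the ER HSP90 gene Hsp90b1 at 50.4. P4hb, which serves both as the beta subunit of prolyl 4-hydroxylase and as protein disulfide isomerase, stood at 35.5. Its partner alpha subunits were lower, with P4ha1 at 10.03, P4ha3 at 1.67 and P4ha2 at 1.47. Serpinh1 stood at 5.77, and 3 extracellular cross-linking enzymes lay near the low end, with Loxl1 at 0.631, Lox at 0.124 and Loxl2 at 0.122. Trib3 at 0.284 and P3h2 at 0.457 lay between Lox and Loxl1. Lox was counted with 15 to 42 reads per library, Loxl2 with 14 to 42 and the stress target Trib3 with 17 to 39, so these genes are the least precisely read.

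**Figure D1:**
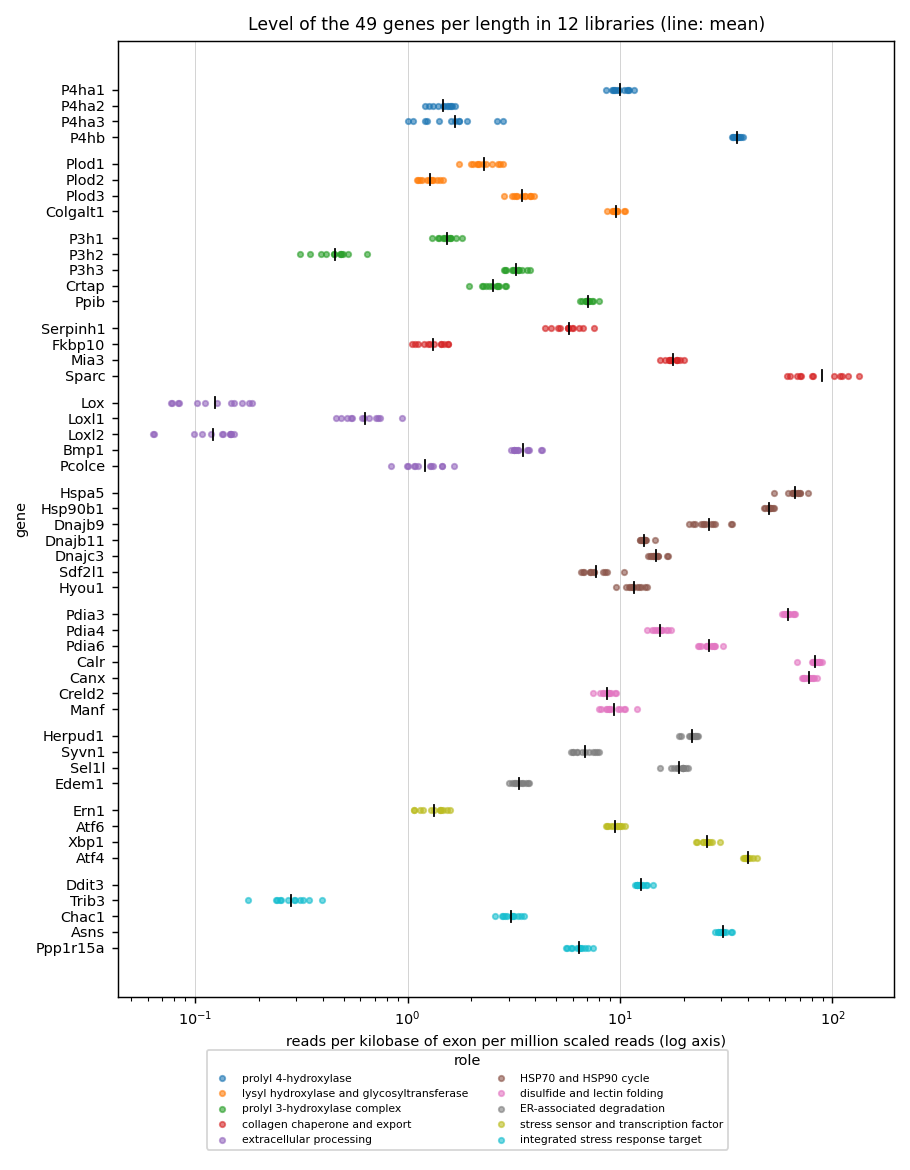
Level of each gene per length (x axis, RPKM, log axis) in 12 libraries (points), with the mean as a vertical line and colours for the 10 roles. The ER chaperones and lectins lie mostly above the collagen-modifying enzymes, apart from Sparc at 88.9 and P4hb at 35.5, and Lox and Loxl2 lie lowest.

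The ER genes varied little between libraries. The SD of log2 CPM over the 12 libraries had a median of 0.10 over the ER genes and 0.16 over the collagen genes, beside 0.16 over 19145 genes tested. These sets were not matched for level, on which this SD also depends. Hsp90b1 had the smallest SD, 0.04, with its highest library 1.11 times its lowest. P4ha3 had the largest SD, 0.43, and ranged 2.80-fold, followed by Sparc at 0.39 with 2.20-fold. Collagen domain female 2, the library with the most C1qtnf3 (107 CPM), was the highest of the 12 in 16 of the 49 genes and in 13.9% of all genes tested. That library also had the highest summed fibroblast and meningeal markers, 287 CPM, and was 1 of the 5 rich in hindbrain markers, at 841 CPM. PBS male 3 was the lowest in 19 of the 49 and in 18.3% of all genes. PBS male 3 was also the highest in 7 of the 49 and in 17.3% of all genes. For PBS female 1, the highest in 8 of the 49, that share over all genes was 15.3%. Libraries are listed within each group in the order of their label numbers from here on.

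**Figure D2:**
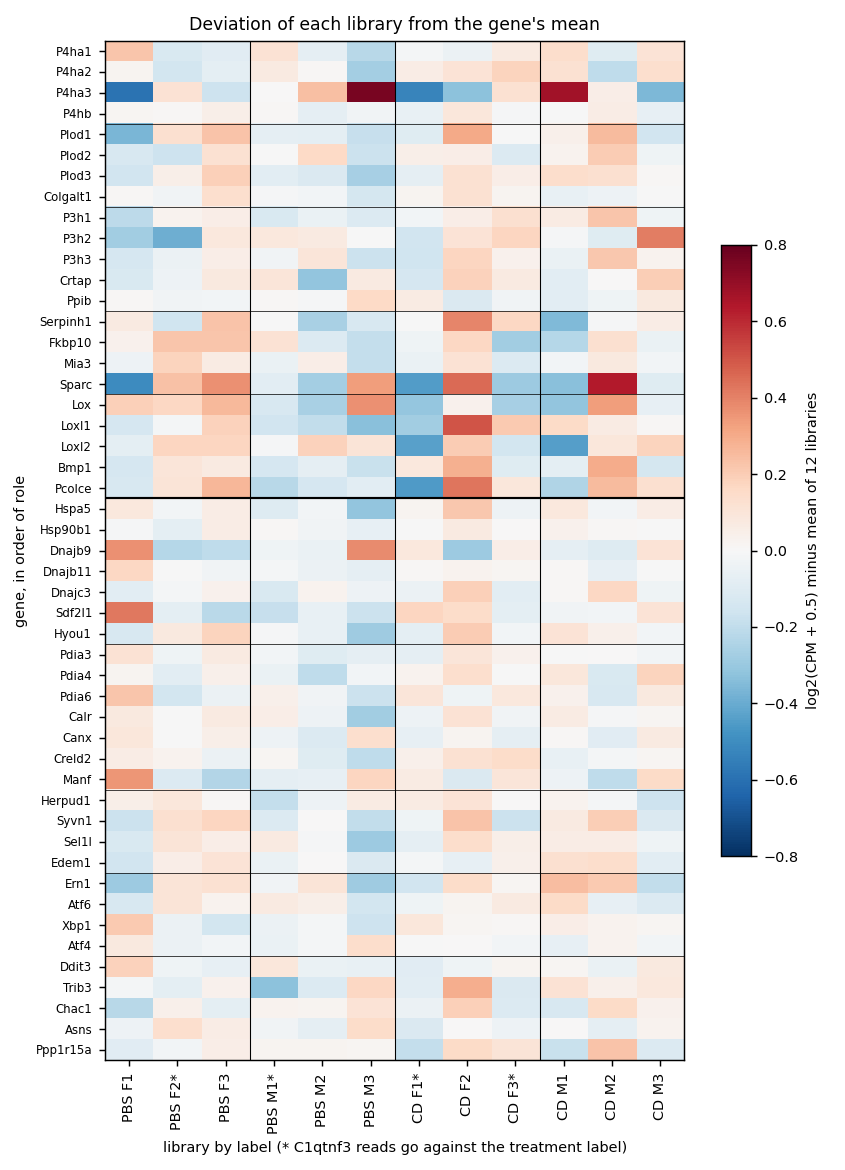
Deviation of each library (columns, by label, with asterisks on the 4 libraries whose C1qtnf3 reads go against the treatment label) from the gene's mean over 12 libraries, in log2(CPM + 0.5), for the 49 genes (rows, ordered by role, thick line between collagen and ER genes). Sparc and P4ha3 show the strongest colours, and collagen domain female 2 is the highest library in 16 genes.

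By label, none of the 49 genes was called as different between collagen domain and PBS. Of 19145 genes, 0 passed an adjusted p of 0.05 in edgeR's quasi-likelihood test (0%), and 0 of the 49 did. At an unadjusted p under 0.05 there were 354 genes (1.85%) and 0 of the 49. That share over all genes is smaller than a limit of 0.05 gives without any difference, so 0 of the 49 carries little weight. DESeq2 and limma-voom also called 0 of the 49. The adjusted p of each of the 49 was 0.9999 in edgeR. The values of the 6 collagen domain libraries overlapped those of the 6 PBS libraries for each of the 49, whereas 13 genes of all those tested (0.0679%) did not overlap. The median log2 fold change was 0.07 over the collagen genes, with 15 of 22 above 0, and 0.04 over the ER genes, with 20 of 27 above 0, beside 0.00 over all genes, of which 50.1% were above 0. The 95% interval of the fold change lay within a factor of 2 in either direction for each of the 49 and within a factor of 1.5 for 44.

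**Figure D3:**
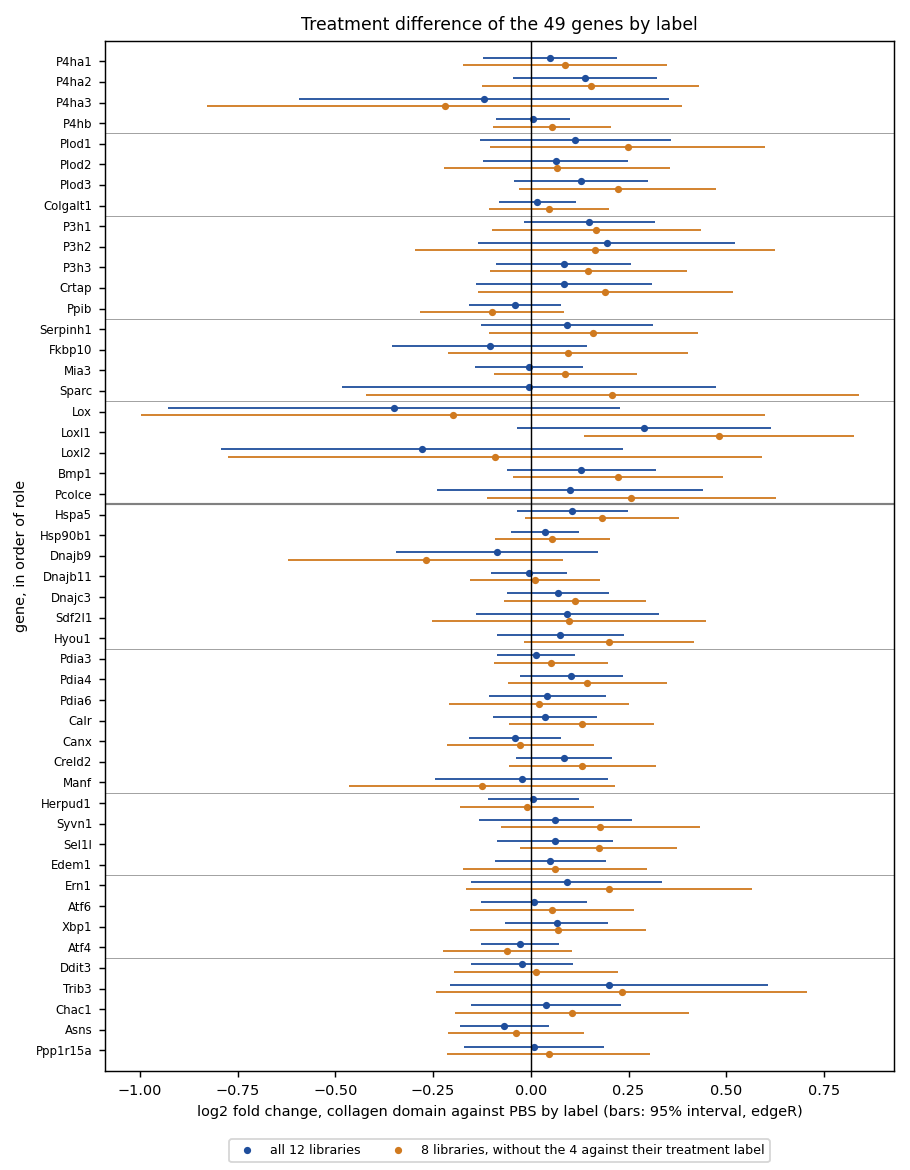
Log2 fold change of collagen domain against PBS by label (x axis) with 95% interval from edgeR (bars) for the 49 genes in order of role, from all 12 libraries (blue) and from the 8 whose C1qtnf3 reads match their treatment label (orange). With all 12, every blue bar crosses 0, and Lox has the lowest bound, -0.93.

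Without the 4 libraries against their treatment label, 2 genes of 19145 passed (0.0104%), C1qtnf3 and the immunoglobulin segment Igkv3-12, and 0 of the 49. The median was then 0.15 over the collagen genes, with 18 of 22 above 0, and 0.06 over the ER genes, with 21 of 27 above 0, beside 0.02 over all genes with 53.3% above 0. At an unadjusted p under 0.05 there was 1 of the 49, Loxl1, beside 3.28% of all genes. Without the 5 libraries against either label the same genes, C1qtnf3 and Igkv3-12, passed, and at an unadjusted p under 0.05 there were 2 of the 49, Loxl1 and Bmp1, beside 5.7% of all genes. The medians were 0.11 over the collagen genes, with 18 of 22 above 0, and 0.08 over the ER genes, with 20 of 27 above 0, beside 52.7% of all genes. With 8 libraries each of the 49 intervals still lay within a factor of 2, and 39 within 1.5. In both of these fits the only collagen domain female left was female 2, the highest of the 12 libraries in 16 of the 49 genes.

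Among the prolyl 4-hydroxylases, whose product holds the triple helix together at body temperature, 3 of 4 had a log2 fold change above 0 by label, with a median of 0.03. P4ha2 (ENSMUSG00000018906) was read at 9.31, 8.22 and 8.66 CPM in PBS females, 9.63, 9.20 and 7.51 in PBS males, 9.55, 9.91 and 10.4 in collagen domain females and 10.02, 7.87 and 10.1 in collagen domain males. P4ha2 gave a log2 fold change of 0.14 by label (SE 0.08, 95% interval -0.05 to 0.32). The low collagen domain value was that of male 2, and the groups overlapped. P4ha3 (ENSMUSG00000051048) stood at 3.15, 5.47 and 4.41 CPM in PBS females and 5.01, 6.001 and 8.81 in PBS males, against 3.31, 3.89 and 5.49 in collagen domain females and 8.28, 5.22 and 3.79 in collagen domain males. By label P4ha3 differed by -0.12 on the log2 scale (SE 0.22, 95% interval -0.59 to 0.35). PBS male 3 and collagen domain male 1 stood above the rest. Without PBS male 3 the P4ha3 difference was 0.01. P4hb (ENSMUSG00000025130) was read at 103, 102 and 105 CPM in PBS females, 102, 96.6 and 99.7 in PBS males, 97.3, 108 and 101 in collagen domain females and 101, 106 and 97.2 in collagen domain males. P4hb gave a log2 fold change of 0.01 by label (SE 0.04, 95% interval -0.09 to 0.10). The 12 values of P4hb, the subunit shared with disulfide formation, lay within a narrow band, and P4ha1, the main alpha subunit here, ranged from 35.3 to 48.0 CPM.

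The lysyl hydroxylases prepare lysines for glycosylation and cross-links, and Colgalt1 adds galactose to them. All 4 log2 fold changes were above 0, with a median of 0.09, and 0 passed. Plod3 (ENSMUSG00000004846) stood at 14.0, 16.1 and 17.9 CPM in PBS females and 14.7, 14.3 and 12.9 in PBS males, against 14.8, 17.0 and 16.2 in collagen domain females and 17.2, 17.1 and 15.7 in collagen domain males. By label Plod3 differed by 0.13 on the log2 scale (SE 0.08, 95% interval -0.04 to 0.30). PBS male 3 was lowest and PBS female 3 highest, so both extremes carried the same label. Plod3 shares 11.7% of its exonic bases with Znhit1 on the opposite strand, and Colgalt1 shares 11.4% with Unc13a. The libraries do not keep strand, so reads there cannot be assigned with certainty. Over the 12 libraries Znhit1 held 10169 reads beside 8423 of Plod3, and Unc13a 121574 beside 22298 of Colgalt1. Plod1 (ENSMUSG00000019055) was read at 11.9, 16.9 and 18.1 CPM in PBS females, 14.6, 14.6 and 13.5 in PBS males, 14.4, 19.1 and 15.4 in collagen domain females and 15.8, 18.4 and 13.8 in collagen domain males. Plod1 gave a log2 fold change of 0.11 by label (SE 0.11, 95% interval -0.13 to 0.36). PBS female 1 was the lowest and collagen domain female 2 the highest. Plod2, which acts on the collagen ends, ranged from 5.99 to 7.92 CPM.

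P3h1, Crtap and Ppib form the complex that hydroxylates 1 proline of the collagen chains and isomerises others, and P3h2 and P3h3 are relatives of P3h1. In this group 4 of 5 were above 0, with a median of 0.08. P3h1 (ENSMUSG00000028641) stood at 5.01, 5.99 and 6.11 CPM in PBS females and 5.37, 5.65 and 5.41 in PBS males, against 5.79, 6.11 and 6.47 in collagen domain females and 6.19, 6.94 and 5.72 in collagen domain males. By label P3h1 differed by 0.15 on the log2 scale (SE 0.08, 95% interval -0.02 to 0.32). This was the smallest p of the 49 in the comparison by label, 0.0743 before adjustment in edgeR. P3h2 (ENSMUSG00000038168) was read at 1.29, 1.17 and 1.81 CPM in PBS females, 1.81, 1.79 and 1.67 in PBS males, 1.46, 1.86 and 1.96 in collagen domain females and 1.67, 1.54 and 2.39 in collagen domain males. P3h2 gave a log2 fold change of 0.19 by label (SE 0.15, 95% interval -0.13 to 0.52). Collagen domain male 3 was the highest library and PBS female 2 the lowest. P3h2 shares 28.4% of its exonic bases with Gm4524 and Ppib 25.0% with Snx22, both on the opposite strand. Crtap ranged from 3.46 to 5.14 CPM, P3h3 from 11.2 to 14.8 and Ppib from 21.5 to 26.2.

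Chaperone and export genes of the collagen route gave a median of 0.00 by label, with 1 of 4 above 0. Serpinh1 (ENSMUSG00000070436) stood at 14.7, 12.4 and 16.4 CPM in PBS females and 13.9, 11.6 and 12.7 in PBS males, against 13.9, 18.5 and 15.7 in collagen domain females and 10.8, 13.9 and 14.6 in collagen domain males. Serpinh1 averaged 13.6 ± 1.76 CPM in PBS and 14.6 ± 2.502 CPM in collagen domain libraries (SD, n = 6 each). By label Serpinh1 differed by 0.09 on the log2 scale (SE 0.10, 95% interval -0.13 to 0.31). Collagen domain females held both the highest library and values inside the PBS range, and collagen domain male 1 was the lowest of the 12. Fkbp10 (ENSMUSG00000001555) was read at 3.92, 4.56 and 4.55 CPM in PBS females, 4.20, 3.51 and 3.295 in PBS males, 3.73, 4.36 and 3.07 in collagen domain females and 3.19, 4.24 and 3.68 in collagen domain males. Fkbp10 gave a log2 fold change of -0.11 by label (SE 0.12, 95% interval -0.35 to 0.14). Fkbp10, a prolyl isomerase that works with HSP47, gave 0.09 both without the 4 and without the 5 libraries, so its sign depended on them. Fkbp10 shares 6.58% of its exonic bases with Nt5c3b on the opposite strand, which held 19095 reads over the 12 libraries beside 2086 of Fkbp10. Sparc (ENSMUSG00000018593) stood at 230.2, 384 and 420.1 CPM in PBS females and 307, 269 and 412 in PBS males, against 239, 446 and 267 in collagen domain females and 259, 505 and 304 in collagen domain males. By label Sparc differed by 0.00 on the log2 scale (SE 0.22, 95% interval -0.48 to 0.47). The Sparc values formed a low and a high set in both treatments, which are described with the hindbrain markers. Mia3, the receptor that loads procollagen into transport carriers, ranged from 68.4 to 88.5 CPM.

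Outside the cell, Bmp1 and its enhancer Pcolce trim procollagen and the lysyl oxidases cross-link it. Here 3 of 5 were above 0, with a median of 0.10, and the 3 lysyl oxidases were among the 5 lowest of the 49 per length. Loxl1 (ENSMUSG00000032334) was read at 1.82, 2.02 and 2.40 CPM in PBS females, 1.79, 1.72 and 1.52 in PBS males, 1.60, 3.11 and 2.44 in collagen domain females and 2.33, 2.17 and 2.06 in collagen domain males. Loxl1 gave a log2 fold change of 0.29 by label (SE 0.15, 95% interval -0.04 to 0.61). Collagen domain female 2 was the highest at 3.11 CPM. Without the 4 libraries the log2 fold change of Loxl1 was 0.48 (SE 0.15), with an unadjusted p of 0.0121 and an adjusted p of 0.818 in edgeR. Lox (ENSMUSG00000024529) stood at 0.731, 0.708 and 0.792 CPM in PBS females and 0.486, 0.400 and 0.889 in PBS males, against 0.371, 0.604 and 0.396 in collagen domain females and 0.368, 0.862 and 0.532 in collagen domain males. By label Lox differed by -0.35 on the log2 scale (SE 0.27, 95% interval -0.93 to 0.23). The 12 values rest on few reads and both treatments spanned most of the range. Loxl2 ranged from 0.344 to 0.820 CPM, Bmp1 from 27.3 to 38.2 and Pcolce from 3.20 to 6.30.

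Among the genes of the HSP70 and HSP90 cycle of the ER, 5 of 7 were above 0 by label, with a median of 0.07. Hspa5 (ENSMUSG00000026864) was read at 297, 276 and 292 CPM in PBS females, 261, 276 and 225 in PBS males, 285, 326 and 273 in collagen domain females and 297, 276 and 292 in collagen domain males. Hspa5 averaged 271 ± 26.3 CPM in PBS and 291 ± 19.2 CPM in collagen domain libraries (SD, n = 6 each). Hspa5 gave a log2 fold change of 0.11 by label (SE 0.07, 95% interval -0.04 to 0.25). PBS male 3 was the lowest library and collagen domain female 2 the highest, and the other 10 lay between 261 and 297 CPM. Dnajb9 (ENSMUSG00000014905) stood at 85.1, 56.3 and 57.2 CPM in PBS females and 64.4, 63.6 and 86.0 in PBS males, against 70.1, 53.8 and 68.6 in collagen domain females and 62.7, 61.6 and 71.4 in collagen domain males. By label Dnajb9 differed by -0.09 on the log2 scale (SE 0.12, 95% interval -0.35 to 0.17). Dnajb9, a J-domain partner of BiP and a usual readout of IRE1 and XBP1, was highest in PBS female 1 and PBS male 3. Hsp90b1 ranged from 193 to 214 CPM, Dnajb11 from 40.0 to 47.3, Dnajc3 from 69.6 to 86.6, Sdf2l1 from 7.22 to 11.5 and Hyou1, the exchange factor of BiP, from 69.1 to 96.9. Hsp90b1 shares 10.3% of its exonic bases with an opposite-strand transcript that had far fewer reads.

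Disulfide isomerases, lectins and their helpers gave a median of 0.04, with 5 of 7 above 0. Pdia4 (ENSMUSG00000025823) was read at 37.5, 34.7 and 37.9 CPM in PBS females, 35.5, 32.0 and 36.2 in PBS males, 37.6, 40.5 and 36.8 in collagen domain females and 39.3, 33.8 and 41.8 in collagen domain males. Pdia4 gave a log2 fold change of 0.10 by label (SE 0.06, 95% interval -0.03 to 0.24). Pdia4 is a disulfide isomerase known as a target of ATF6, and its PBS values, 32.0 to 37.9 CPM, overlapped the collagen domain values, 33.8 to 41.8. Manf (ENSMUSG00000032575) stood at 42.3, 30.5 and 28.0 CPM in PBS females and 31.3, 31.4 and 37.2 in PBS males, against 34.5, 30.3 and 35.3 in collagen domain females and 32.0, 28.6 and 36.6 in collagen domain males. By label Manf differed by -0.02 on the log2 scale (SE 0.10, 95% interval -0.24 to 0.20). Manf, a secreted factor that binds BiP, was highest in PBS female 1 and next highest in PBS male 3, the same libraries as for Dnajb9. Pdia3 ranged from 182 to 210.1 CPM, Calr from 197 to 258, Canx from 336 to 398 and Creld2 from 10.2 to 13.1.

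ER-associated degradation removes proteins that fail to fold, and the 4 genes read here were above 0 by label with a median of 0.06. Sel1l (ENSMUSG00000020964) was read at 149, 174 and 168 CPM in PBS females, 170.2, 161 and 133 in PBS males, 154, 179 and 168 in collagen domain females and 169, 169 and 158 in collagen domain males. Sel1l gave a log2 fold change of 0.06 by label (SE 0.07, 95% interval -0.09 to 0.21). Syvn1 (ENSMUSG00000024807) stood at 29.2, 36.1 and 37.2 CPM in PBS females and 30.5, 33.1 and 28.7 in PBS males, against 32.3, 38.8 and 29.3 in collagen domain females and 34.7, 37.8 and 30.4 in collagen domain males. By label Syvn1 differed by 0.06 on the log2 scale (SE 0.09, 95% interval -0.13 to 0.26). Sel1l and Syvn1 encode an adaptor and the ubiquitin ligase of the same complex, and for both PBS male 3 was the lowest library and collagen domain female 2 the highest. Herpud1 ranged from 44.2 to 54.5 CPM and Edem1 from 19.5 to 23.9.

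Sensors and transcription factors of the response gave a median of 0.04, with 3 of 4 above 0. Xbp1 (ENSMUSG00000020484) was read at 96.1, 80.0 and 74.8 CPM in PBS females, 80.2, 82.1 and 73.6 in PBS males, 88.4, 83.7 and 83.2 in collagen domain females and 86.1, 84.5 and 83.6 in collagen domain males. Xbp1 averaged 81.1 ± 8.02 CPM in PBS and 84.9 ± 1.99 CPM in collagen domain libraries (SD, n = 6 each). Xbp1 gave a log2 fold change of 0.07 by label (SE 0.06, 95% interval -0.07 to 0.20). PBS female 1 was highest, and the 6 collagen domain values lay inside the PBS range. Ern1 (ENSMUSG00000020715) stood at 8.75, 11.6 and 11.8 CPM in PBS females and 10.6, 11.6 and 8.76 in PBS males, against 9.64, 12.002 and 10.9 in collagen domain females and 12.9, 12.6 and 9.35 in collagen domain males. By label Ern1 differed by 0.09 on the log2 scale (SE 0.11, 95% interval -0.15 to 0.34). Ern1 encodes IRE1 alpha, the sensor that splices Xbp1. Atf4 (ENSMUSG00000042406) was read at 99.2, 91.0 and 92.4 CPM in PBS females, 90.5, 92.9 and 104 in PBS males, 93.9, 94.3 and 92.4 in collagen domain females and 89.8, 96.0 and 92.7 in collagen domain males. Atf4 averaged 94.98 ± 5.34 CPM in PBS and 93.2 ± 2.10 CPM in collagen domain libraries (SD, n = 6 each). Atf4 gave a log2 fold change of -0.03 by label (SE 0.05, 95% interval -0.13 to 0.07). Atf4, the factor translated when PERK or a related kinase slows protein synthesis, had its highest value in PBS male 3. Atf6 ranged from 79.0 to 97.4 CPM.

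Targets of the ATF4 branch gave a median of 0.01, with 3 of 5 above 0. Ddit3 (ENSMUSG00000025408) stood at 24.5, 21.0 and 20.5 CPM in PBS females and 22.9, 20.7 and 20.6 in PBS males, against 20.1, 21.0 and 21.9 in collagen domain females and 21.8, 20.7 and 22.7 in collagen domain males. Ddit3 averaged 21.7 ± 1.63 CPM in PBS and 21.4 ± 0.946 CPM in collagen domain libraries (SD, n = 6 each). By label Ddit3 differed by -0.02 on the log2 scale (SE 0.06, 95% interval -0.15 to 0.11). Ddit3, the gene of CHOP, was highest in PBS female 1, and 3.97% of its exonic bases lie over Mars on the other strand. Asns (ENSMUSG00000029752) was read at 80.7, 91.2 and 86.6 CPM in PBS females, 81.4, 79.2 and 92.2 in PBS males, 76.6, 83.2 and 80.7 in collagen domain females and 83.4, 79.1 and 84.6 in collagen domain males. Asns gave a log2 fold change of -0.07 by label (SE 0.05, 95% interval -0.18 to 0.05). Trib3 (ENSMUSG00000032715) stood at 0.584, 0.541 and 0.622 CPM in PBS females and 0.375, 0.518 and 0.732 in PBS males, against 0.533, 0.842 and 0.512 in collagen domain females and 0.688, 0.629 and 0.665 in collagen domain males. By label Trib3 differed by 0.20 on the log2 scale (SE 0.19, 95% interval -0.21 to 0.61). Trib3, an inhibitor of kinase signalling induced by CHOP, was read so thinly that its interval reached from -0.21 to 0.61. Asns makes asparagine, and its 12 values lay close together. Chac1, which breaks down glutathione, ranged from 4.22 to 5.76 CPM, and Ppp1r15a, which restores protein synthesis, from 16.3 to 21.9.

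Other genes of these pathways, not among the 49, were read from a pair of lists. Of 26 other collagen biosynthesis genes tested, 0 passed and 0 were at an unadjusted p under 0.05 by label, with a median of 0.02 and 17 above 0. The smallest p were those of the prolyl isomerase gene Fkbp7 with a log2 fold change of -0.30 (SE 0.15), the protease gene Tll2 with 0.30 (SE 0.17) and Fkbp9 with 0.07 (SE 0.05). Of 47 other unfolded protein response and ER folding genes, 0 passed and 0 were at an unadjusted p under 0.05, with a median of 0.00 and 24 above 0. The smallest p were those of Mbtps2, a protease that frees ATF6, with -0.09 (SE 0.05), the stress-induced hormone gene Stc2 with 0.27 (SE 0.15) and the serine synthesis gene Psat1 with -0.08 (SE 0.05). Without the 4 libraries against their treatment label, 0 of either list passed, and Stc2 stood at 0.43 (SE 0.17) and Fkbp7 at -0.47 (SE 0.20). At an unadjusted p under 0.05 in edgeR there were then 1 of the 26 and 2 of the 47, beside 3.28% of all genes. Without the 5 libraries against either label 0 of either list passed. There 2 of the 26 and 4 of the 47 were at an unadjusted p under 0.05, beside 5.7% of all genes, with Sar1b and Sesn2 of smallest p.

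Read within the sexes as labelled, the 49 genes again gave no call. In females 0 of 19145 genes passed in edgeR (0%) and 0 of the 49 by edgeR, DESeq2 or limma-voom, with 0 of the 49 at an unadjusted p under 0.05 beside 1.46% of all genes. The medians were 0.01 over the collagen genes, with 12 of 22 above 0, and 0.01 over the ER genes, with 15 of 27 above 0, beside -0.01 over all genes with 47.6% above 0. The gene of smallest p was Lox at -0.70 (SE 0.36). In females the 4 removed libraries weigh most, since 2 of 3 collagen domain females and 1 of 3 PBS females are among them. Without them the female median of the collagen genes was 0.13, with 19 of 22 above 0, and that of the ER genes 0.04, with 17 of 27 above 0, beside 50.5% of all genes. These values rest on 1 collagen domain library, female 2, and on 2 PBS libraries, where the lone library is assumed to vary like the other groups. In that fit 1 gene of 19145 passed, C1qtnf3 (0.00522%), and at an unadjusted p under 0.05 there were 0 of the 49 beside 1.94% of all genes. The further library among the 5 is collagen domain male 3. Without the 5, the female contrast therefore used the same 1 collagen domain and 2 PBS libraries and is not a separate reading. Its medians were 0.13 and 0.04, with 19 of 22 and 17 of 27 above 0 beside 50.5% of all genes.

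In males 0 of 19145 genes passed in edgeR (0%), and 0 of the 49 by edgeR, DESeq2 or limma-voom. At an unadjusted p under 0.05 there was 1 of the 49, Plod3 at 0.26 (SE 0.10), beside 1.7% of all genes. The medians were 0.09 over the collagen genes, with 19 of 22 above 0, and 0.06 over the ER genes, with 21 of 27 above 0, beside 0.01 over all genes with 52.3% above 0. Hspa5 was next by p at 0.18 (SE 0.09). Without the 4 libraries 1 gene of 19145 passed (0.00522%), C1qtnf3, and 0 of the 49, with 0 at an unadjusted p under 0.05 beside 1.29% of all genes. The medians were then 0.11 over the collagen genes, with 18 of 22 above 0, and 0.08 over the ER genes, with 19 of 27 above 0, beside 53.3% of all genes. Without the 5 libraries C1qtnf3 again passed alone (0.00522%), 0 of the 49 were at an unadjusted p under 0.05 beside 1.46% of all genes, and the medians were 0.12, with 17 of 22 above 0, and 0.09, with 21 of 27 above 0.

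The difference between the sexes in treatment effect was tested itself. The interaction called 0 of 19145 genes in edgeR (0%) and 0 of the 49 in edgeR, DESeq2 or limma-voom, with 0 of the 49 at an unadjusted p under 0.05 beside 1.37% of all genes. The largest difference of the 49 was that of Lox, 0.70 (SE 0.52), and the smallest p was that of Plod3, 0.25 (SE 0.15). The medians, male effect minus female effect, were 0.09 over the collagen genes, with 17 of 22 above 0, and 0.07 over the ER genes, with 19 of 27 above 0, beside 50.6% of all genes. Leaving out the 4 libraries gave a collagen median of -0.03, with 9 of 22 above 0, and an ER median of 0.04, with 17 of 27 above 0, beside 51.9% of all genes, and 0 of the 49 were at an unadjusted p under 0.05 beside 1.12%. Without the 5 libraries these were -0.04, with 8 of 22, and 0.05, with 20 of 27, beside 51.6% of all genes, and 0 of the 49 were at an unadjusted p under 0.05 beside 0.951%. The collagen genes' median for this difference thus had either sign, depending on the libraries. By label the interval lay within a factor of 2 for 44 of the 49, so a larger difference between sexes is not covered for the other 5.

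Between labelled males and females 0 of 19145 genes passed in edgeR (0%) and 0 of the 49 by edgeR, DESeq2 or limma-voom. At an unadjusted p under 0.05 there were 2 of the 49, P4ha3 at 0.52 (SE 0.22) and Serpinh1 at -0.24 (SE 0.10), beside 1.97% of all genes. The medians, male minus female, were -0.02 over the collagen genes, with 7 of 22 above 0, and -0.03 over the ER genes, with 8 of 27 above 0, beside 0.00 over all genes with 49.4% above 0. When the 4 libraries against their treatment label were left out, 1 gene of 19145 passed (0.00522%), the X-linked claudin gene Cldn34c1, and 0 of the 49, of which 4 were at an unadjusted p under 0.05, namely Serpinh1, Loxl1, P4ha3 and Hspa5, beside 2.51% of all genes. The medians were then -0.10, with 5 of 22 above 0, and -0.07, with 6 of 27 above 0, beside 48.7% of all genes. Since 4 libraries go against their sex label, the fit without the 5 libraries against either label is the one in which Xist and Y-linked genes passed. There 7 of 19145 genes passed (0.0366%) and 0 of the 49, with P4ha3 at 0.90 (SE 0.23), an unadjusted p of 0.00541 and an adjusted p of 0.9999 in edgeR, and Serpinh1 at -0.45 (SE 0.12). At an unadjusted p under 0.05 there were 3 of the 49, P4ha3, Serpinh1 and Loxl1, beside 2.09% of all genes. The medians were -0.12, with 5 of 22 above 0, and -0.07, with 7 of 27 above 0, beside 49.2% of all genes. Over the 7 libraries kept, P4ha3 stood at 6.001, 8.81, 8.28 and 5.22 CPM in males and at 3.15, 4.41 and 3.89 in females, without overlap. Over all 12 libraries as labelled, its male values of 3.79 to 8.81 CPM overlapped the female values of 3.15 to 5.49. Collagen domain female 3, left out for its treatment label while its sex label held, stood at 5.49, above collagen domain male 2 at 5.22. Collagen domain female 1, whose Xist and Ddx3y reads go against its label, stood at 3.31. Grouped by those reads, the P4ha3 values of the sexes in all 12 libraries also overlapped. Serpinh1 ran from 10.8 to 13.9 CPM in the 4 males kept and from 14.7 to 18.5 in the 3 females, also without overlap. Over the 7 libraries kept, P4ha3 alone of the 49 had every male above every female (1.47% of all genes did). There 4 genes had every male below, Serpinh1, Calr, Pdia3 and Colgalt1 (1.54% of all genes), the last 3 named after their values were seen.

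C1qtnf3 reads, in which the mouse gene and the delivered construct cannot be told apart, were also used as a graded measure. Over the 12 libraries they fall into separate low and high sets, so the relation was fitted within the 6 libraries with 1000 or more reads, from 22.3 to 107 CPM, of which 2 are labelled PBS. Among 19145 genes 1 passed in edgeR (0.00522%), C1qtnf3 itself, which is the measure. Of the 49, 0 passed in edgeR, DESeq2 or limma-voom and 0 were at an unadjusted p under 0.05, beside 0.616% of all genes. The median slope per doubling of C1qtnf3, in log2 units, was 0.04 over the collagen genes, with 17 of 22 above 0, and 0.03 over the ER genes, with 22 of 27 above 0, beside 0.00 over all genes with 49.2% above 0. Each of the 49 intervals lay within a factor of 2 per doubling, and 45 within 1.5.

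From the least to the most C1qtnf3, Hspa5 stood at 276, 292, 261, 276, 297 and 326 CPM, a slope of 0.08 (SE 0.06). The value of 326 belongs to 1 library, collagen domain female 2, which is also rich in hindbrain and fibroblast markers. Serpinh1 stood at 12.4, 14.6, 13.9, 13.9, 10.8 and 18.5 CPM in the same order, a slope of 0.14 (SE 0.12), with its lowest value in the library of second most C1qtnf3. Ddit3 stood at 21.0, 22.7, 22.9, 20.7, 21.8 and 21.0 CPM, a slope of 0.00 (SE 0.06). P4hb, Xbp1 and Atf4 had slopes of 0.02, 0.04 and 0.01, each with an SE of 0.04. The smallest p was that of Loxl1, 0.22 (SE 0.13). These slopes rest on the libraries at either end. Without PBS female 2, which has the least C1qtnf3 of the 6, the slope was 0.71 for Loxl1 and 0.25 for Hspa5, and the medians were 0.10 over the collagen genes and 0.09 over the ER genes. Without collagen domain female 2, which has the most, the slope was 0.07 for Loxl1 and 0.03 for Hspa5, and the medians were -0.01 and 0.02. None of the 49 was called in either case. With all 6 libraries the median slope of the ER genes was 0.03, and in the 6 libraries with 8 to 28 C1qtnf3 reads it was -0.04. In that low set C1qtnf3 ran only from 0.19 to 0.71 CPM, so differences in it rest on few reads and its slope is poorly measured.

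**Figure D4:**
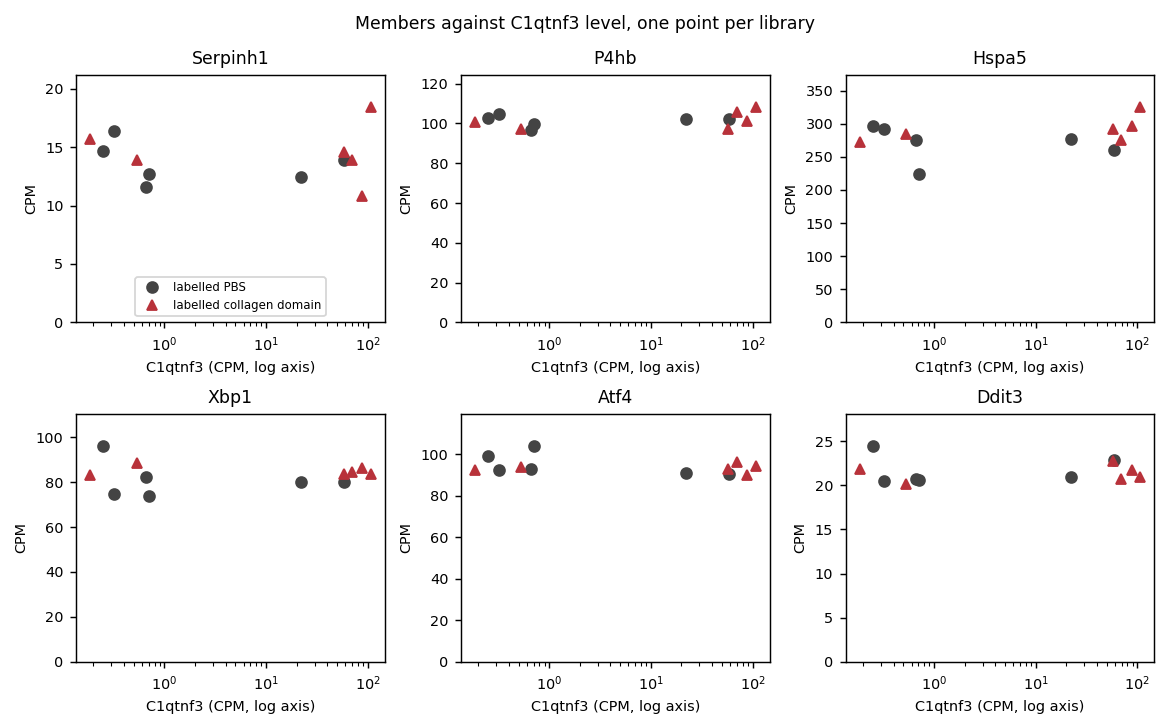
CPM (y axis, from 0) of 6 genes against CPM of C1qtnf3 (x axis, log axis) in 12 libraries, by label as circles (PBS) and triangles (collagen domain). The libraries form a set below 1 CPM of C1qtnf3 and a set from 22.3 to 107 CPM, and in each panel the values of both sets overlap.

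Meningeal fibroblasts are a known source of collagen, so their markers were read beside the collagen genes, not all of which are particular to such cells. The 15 fibroblast and meningeal markers were detected in every library, with a summed level of 200.4 to 273 CPM in PBS and 183 to 287 CPM in collagen domain libraries, highest in collagen domain female 2 and lowest in collagen domain female 1. Of the 22 collagen genes, collagen domain female 2 was the highest library in 6 and collagen domain female 1 the lowest in 1. That 1 gene was Pcolce, at 3.20 CPM, which was highest in collagen domain female 2, at 6.30 CPM. PBS male 3 was the lowest library in 9 of the collagen genes. With the marker mean as a covariate, the median by label was 0.09 over the collagen genes and 0.05 over the ER genes, with 0 of the 49 called. The same covariate moved the interaction median of the collagen genes from 0.09 to 0.00 and that between the sexes from -0.02 to 0.04.

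Of the 49 genes, 1 was higher and 1 lower without overlap in the libraries rich in hindbrain markers, shares no larger than those over all genes. In the 5 libraries with 529 CPM or more of the hindbrain markers Sparc ran from 384 to 505 CPM, and in the remaining 7 from 230.2 to 307, without overlap, as did 5.06% of all genes in that direction. Pdia6, a disulfide isomerase named here after its values were seen, ran from 87.0 to 96.0 CPM in those 5 libraries and from 96.2 to 114 in the remaining 7, as did 2.79% of all genes in that direction. The 5 libraries are PBS female 2, PBS female 3, PBS male 3, collagen domain female 2 and collagen domain male 2, so both treatments and both sexes are among them. The forebrain markers were lower in these 5 libraries, without overlap. Astrocyte markers summed to 1952 to 2371 CPM in these libraries and to 1543 to 1728 in the others, and oligodendrocyte markers to 6228 to 7106 and 4953 to 5666. With the hindbrain marker mean as a covariate, Sparc gave a treatment difference of 0.11 in place of 0.00, and 0 of the 49 were called. P4ha3 held low and high values on both sides. The share of these differences that goes with tissue composition was not tested.

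**Figure D5:**
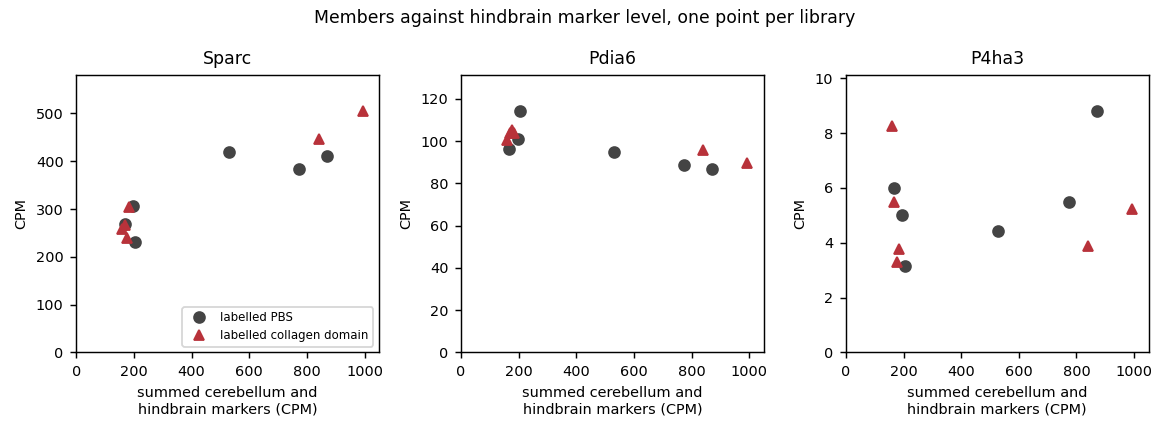
CPM (y axis, from 0) of Sparc, Pdia6 and P4ha3 against the summed level of 12 cerebellum and hindbrain markers (x axis, CPM) in 12 libraries, by label as circles (PBS) and triangles (collagen domain). Sparc is higher and Pdia6 lower in the 5 libraries with 529 CPM or more of the markers, while P4ha3 is spread on both sides.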

How the data were processed

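Poly(A) RNA of frozen, pulverised mouse forebrain was read in 12 libraries, unstranded and in pairs of reads, per the labels' protocols. The authors deposited raw counts of reads, 1 row per Ensembl ID, and STAR, DESeq2 and GRCm39 are named per the submitters' processing notes without version or role. How reads shared by genes were counted is not given in the sources used here. Totals ran from 39272127 to 52323985 reads per library. Of 43629 IDs, 42462 took a symbol from GENCODE M21 and the other 1167 held 0.144% of reads.

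The 49 genes, the lists and their order were chosen with earlier results of these data known. Genes were kept by filterByExpr (19145), scaled by TMM and tested in edgeR 4.0.16 (R 4.3.3) by quasi-likelihood F-tests, two-sided, with Benjamini-Hochberg adjustment over all genes and a threshold of 0.05. An additive model gave the treatment effect over both sexes and the male to female difference. A model of the 4 groups gave treatment within each sex and its difference between sexes, and the C1qtnf3 slope used the 6 libraries with 1000 or more of its reads. The script was tested on simulated data. The limit of 1000 C1qtnf3 reads also set which libraries went against their treatment label: collagen domain ones below it and PBS ones at or above it.

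Values in every library are given for Serpinh1, P4hb, Hspa5, Xbp1, Atf4 and Ddit3 and, in each of 10 role groups, for the gene of smallest p by label and the gene of largest SD, and for any gene called. From the other pathway lists the 3 of smallest p are named. Role groups are described by counts and medians, with no test. Alternatives were DESeq2 1.42.0, limma-voom (limma 3.58.1), relative log expression factors, other filters, a threshold of 0.1, marker covariates, a replicate block and libraries left out. The limit of 400 CPM that separates libraries by hindbrain markers was chosen after seeing the data. Levels per length use GENCODE M21 exon lengths. Promoters are RefSeq's, of GRCm38.p6, matched by symbol, so no coordinates are given for the counts. Protein sequences were not used here. Figures were drawn with Python 3.11.15 and matplotlib 3.10.9.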

Additional observations from a re-analysis of the deposited data

Results flagged for a closer look

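P4ha2, an alpha subunit of prolyl 4-hydroxylase, stood at 7.87 CPM in collagen domain male 2, while the other 5 libraries labelled collagen domain lay between 9.55 and 10.4 CPM. The gap to the nearest library was 0.661 of the range of the 6 libraries, above Dixon's 95% limit for that number of libraries. It was the only one of 48 sets of libraries examined for the named genes (24 genes under each label) to pass that limit, and chance passes about 1 in 20.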

How the results depend on the processing

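Across every comparison and alternative that was run, 0 of the 49 genes were called. A fit with a replicate block, a label number within a sex, could be made for every comparison of treatment and not for male against female. By label it called 0 of the 49 genes and 0 of all genes, with medians of 0.07 (collagen) and 0.04 (ER). Whether the label numbers pair the libraries is not settled by these data. Deviations of same-numbered libraries correlated at 0.51, 0.46 and -0.14 in females and at 0.14, -0.35 and -0.19 in males. Not every library matched its own number best. The pairs above 0 were alike in hindbrain marker level and those below 0 were unlike, so the correlations cannot decide pairing. Medians moved by more than the spread between libraries in the cases that follow. Without the 4 libraries against their treatment label the collagen median in females was 0.13, that of the interaction -0.028 and the ER median between sexes -0.070. Without the 5 against either label the ER median by label was 0.083, and the collagen medians were -0.044 for the interaction and -0.12 between sexes. In females the collagen median was 0.13, from the same female libraries as without the 4. The fibroblast covariate gave an interaction median of 0.0045 for collagen genes. The slope median of the ER genes was -0.042 in the other 6 libraries and ran from 0.019 to 0.086 when each library was left out. Some single differences by label changed sign while never passing. Fkbp10 was 0.094 without the 4 and 0.094 without the 5, Sparc was 0.11 and 0.077 under the hindbrain and fibroblast covariates and 0.21 and 0.29 without the 4 and the 5, and Ddit3 was 0.012 without the 4. With each library left out, the ranges were -0.27 to 0.0072 for P4ha3, -0.17 to 0.084 for Sparc, -0.14 to 0.0078 for Dnajb9, -0.077 to 0.065 for Manf, -0.012 to 0.023 for P4hb, -0.043 to 0.0019 for Atf4 and -0.043 to 0.020 for Ddit3. In the other 6 libraries, where C1qtnf3 rests on 8 to 28 reads, the slopes of Loxl1 and Hspa5 were -0.30 and -0.10. The cause of these shifts was not tested. Over all genes DESeq2 called 3 in males, 1 for the interaction, 8 between sexes and 5 along C1qtnf3, none of them among the 49, where edgeR called 0, 0, 0 and 1. Leaving out collagen domain female 3 gave 1 call in males and leaving out PBS male 3 gave 5 between sexes, while the slope had 0 calls without PBS female 2 and 3 without PBS male 1, again none among the 49. Slopes on C1qtnf3 in CPM have another unit, so their medians are not set beside the others. Low reads limit Lox, Loxl2 and Trib3.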
